A study of Homo sapiens with 8 samples.

Results

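The genes described here are 10 regulators of keratinocyte identity, taken by their symbols from the 34415 symbols of the count table: the transcription factors TP63, KLF5, TFAP2A, TFAP2C, SOX4 and SOX9, and the Notch genes JAG1, NOTCH1, NOTCH2 and HES1. All 10 passed the filter on low counts. The genes were chosen by their role and with their fold changes between the siRNAs in these same 8 libraries known, so for the 10 genes that difference is given as a description, and no p-value is given for it.

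The cells were HaCaT, keratinocytes of human epidermis that became immortal in culture without a transforming virus, used between passages 21 and 33. All 8 cultures were kept in RPMI-1640 medium with serum, spent 96 h at 35 mM glucose in place of the basal 5.5 mM, and were transfected for 48 h with small interfering RNA (siRNA). The siRNA of 4 cultures targeted ETV4, an ETS-family transcription factor (siETV4), and the remaining 4 received a negative control (siNC). Replicates are described by the submitters as independent, no library at basal glucose was analysed here, and 1 cell line stands for keratinocytes in general.

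As background, p63, the product of TP63, is the master regulator of stratified epithelia: it keeps basal keratinocytes able to divide and opens the chromatin on which KLF5 and the AP-2 factors also act. Notch signalling passes between neighbouring cells. A ligand such as JAG1 on one cell makes proteases release the intracellular part of a receptor such as NOTCH1 in the next, and this part joins the DNA-binding protein RBPJ to switch on genes such as HES1. In epidermis Notch activity drives cells out of the basal layer, and p63 and Notch restrain each other.

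The libraries held between 35057643 and 41657753 counts. ETV4 stood at 76 to 129 counts in the siETV4 libraries and at 819 to 1312 in the siNC libraries. It overlaps DHX8, a protein-coding gene on the opposite strand with a mean count of 4004. Whether the counts used strand is not stated in the labels, so some reads counted for ETV4 may be of DHX8. Keratinocyte markers summed to 1264 to 1384 FPKM (a level divided by gene length and by the total of the library) in siETV4 and to 1278 to 1464 in siNC, with all 8 of them above 1 FPKM on average. Of the suprabasal markers, KRT10 and IVL were at 13.5 FPKM or more in every library. FLG stayed at 0.308 FPKM or less, KRT1 at 0.0399 or less and LORICRIN at 0. Melanocyte markers summed to 1.01 to 2.10 FPKM, fibroblast markers to 0.553 to 1.07 and immune markers to 0.119 to 0.506, and TYR, MLANA, COL1A2, LUM, PTPRC and the Merkel cell gene ATOH1 were at 0 in all libraries. Of the endothelial markers CDH5 was at 3.15 to 5.17 FPKM and the other 2 near 0. The libraries also differed in how their counts followed the GC content of transcripts: across genes, which are not independent, Spearman's rho between a library's deviation and GC content lay between 0.524 and 0.631 for siNC replicates 1 to 3 but at -0.598 for siNC replicate 4. It was -0.643, 0.203, -0.573 and 0.0211 for siETV4 replicates 1 to 4.

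Per unit of length, the means of the 10 genes in the siNC libraries ran from 6.71 to 27.8 FPKM. KLF5, a zinc finger factor of proliferating epithelium, had the highest mean at 27.8 ± 7.04 FPKM (SD, n = 4), and HES1, a repressor switched on by Notch, followed at 25.8 ± 1.77 FPKM. The ranges of these 2 genes overlapped. JAG1 was next at 19.0 ± 1.64 FPKM, and all its libraries lay below those of HES1.

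From JAG1 downwards each gene overlapped the next: TFAP2A at 15.6 ± 2.69 FPKM, TFAP2C at 14.5 ± 1.43, NOTCH1 at 12.3 ± 2.89, TP63 at 11.7 ± 2.69, NOTCH2 at 11.0 ± 1.61 and SOX9 at 10.8 ± 1.27 (SD, n = 4 each). Neighbours in this order are thus not separated by the spread between libraries, while genes further apart can be: every JAG1 library lay above every library of NOTCH1, TP63, NOTCH2 and SOX9, and every TFAP2A and TFAP2C library above every library of NOTCH2 and SOX9. SOX4 was the lowest at 6.71 ± 1.25 FPKM, and its highest siNC library (8.49 FPKM) lay below the lowest SOX9 library (9.88 FPKM). In siETV4 SOX4 stood at 11.7 ± 1.05 FPKM beside 11.1 ± 2.20 for SOX9.

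Of the 10 genes SOX4 differed most between the siRNAs. It encodes a high-mobility-group transcription factor of progenitor cells and lies on chromosome 6 from 21593751 to 21598619 (GRCh38, plus strand). In CPM (counts relative to the TMM-scaled library total, 1 CPM being 40.1 counts at the mean depth), the siETV4 libraries stood at 56.6, 50.5, 58.6 and 59.2 and the siNC libraries at 29.01, 33.8, 29.1 and 40.4, in the order of replicates 1 to 4. The lowest siETV4 library was above the highest siNC library, so the groups did not overlap, and siNC replicate 4 was the nearest to the siETV4 group. Group means were 56.2 ± 3.98 CPM in siETV4 and 33.1 ± 5.35 CPM in siNC (SD, n = 4 each), a 1.70-fold level and a log2 fold change of 0.77 (SE 0.13). In bulk RNA, more cells with SOX4 and more SOX4 RNA per cell cannot be told apart, and the same holds for every gene below.

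In edgeR's quasi-likelihood fit over all 13572 genes, 0.236% of genes had an adjusted p under 0.05, in either direction, and so did 1 of the 10, SOX4. The count was 0 with library size alone as the scaling, with the replicate number as a block and in 7 of the 8 runs that left out 1 library, and 1 without siNC replicate 4. Since this contrast entered the choice of the genes, nothing is read from these counts. SOX4 was also the 1 gene of the 10 whose groups did not overlap, against 6.55% of all genes tested, 2.62% with siETV4 higher and 3.93% with siETV4 lower. Its log2 fold change was 0.82 (SE 0.11) with the trends of GC content and length removed and 0.71 to 0.88 when 1 library was left out. The highest of these values was that without siNC replicate 4.

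**Figure D1:**
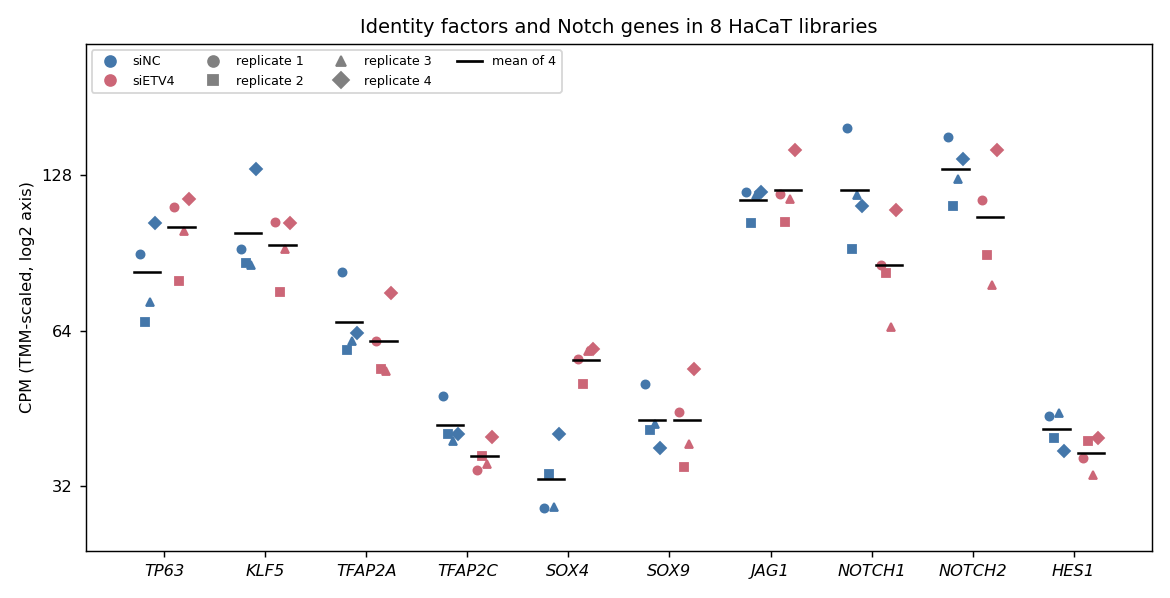
CPM (log2 axis) of the 10 genes in the 4 siNC (blue) and 4 siETV4 (red) libraries, with marker shapes for replicate numbers and a black line for each group mean. SOX4 is the gene whose groups do not overlap, at 29.01 to 40.4 against 50.5 to 59.2 CPM.

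SOX9, the relative of SOX4 known from hair follicle stem cells, had nearly equal group means. The siETV4 libraries stood at 44.5, 34.9, 38.7 and 53.9 CPM and the siNC libraries at 50.4, 41.1, 42.3 and 37.9 CPM. The siETV4 range enclosed the siNC range, and the log2 fold change was 0.00 (SE 0.15), or -0.13 to 0.09 when 1 library was left out.

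The ratio of SOX4 to SOX9 within a library does not depend on how libraries are scaled. Per length it was 1.03, 1.17, 1.22 and 0.886 in the siETV4 libraries and 0.464, 0.663, 0.555 and 0.860 in the siNC libraries. SOX4 thus reached or passed the level of SOX9 in 3 siETV4 libraries and in no siNC library. The groups were close at their edges, siETV4 replicate 4 and siNC replicate 4, with means of 1.08 ± 0.151 and 0.636 ± 0.170 (SD, n = 4 each).

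**Figure D2:**
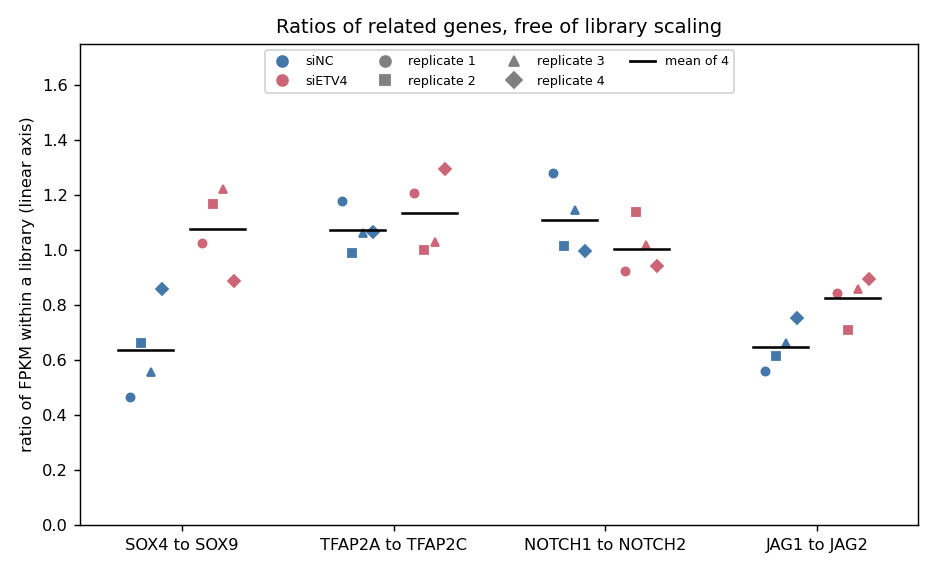
Ratio of FPKM between related genes within each library (linear axis from 0), with siNC in blue, siETV4 in red, marker shapes for replicates and a black line for each mean of 4. SOX4 to SOX9 averages 1.08 in siETV4 and 0.636 in siNC, while TFAP2A to TFAP2C and NOTCH1 to NOTCH2 overlap between the groups.

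TP63, on chromosome 3 from 189596746 to 189897276 (plus strand), had the second highest log2 fold change of the 10 genes, 0.29 (SE 0.16). Its siETV4 libraries stood at 111, 79.9, 99.7 and 115 CPM and its siNC libraries at 90.2, 66.7, 72.7 and 104 CPM. The groups overlapped: siNC replicate 4 was above siETV4 replicates 2 and 3, and siETV4 replicate 2 was below siNC replicate 1. Counts per symbol add up the isoforms of p63 with and without the transactivation domain, which these data cannot separate.

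The size of the TP63 difference varied between settings. Its longest transcript has the lowest GC content of the 10 genes, 42.5%, against a median of 48.4% over all genes tested. The log2 fold change was 0.13 (SE 0.09) with GC content and length trends removed, 0.41 without siNC replicate 4, and 0.19 to 0.41 over the 8 runs that left out 1 library. The part of GC content in the difference was not tested. TP73, a relative of TP63, stood at 0.615 FPKM in siNC and 0.587 FPKM in siETV4.

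KLF5 stood at 104, 76.1, 92.1 and 104 CPM in siETV4 and at 92.1, 86.6, 86.0 and 132 CPM in siNC. The highest value belonged to siNC replicate 4 and the lowest to siETV4 replicate 2, so the siNC range lay partly within and partly above that of siETV4. The log2 fold change was -0.08 (SE 0.15), and leaving out single libraries gave -0.14 to 0.09, the highest value without siNC replicate 4. KLF4, the relative that drives the barrier programme of differentiating cells, was 5.43 FPKM in siNC and 7.02 FPKM in siETV4 (log2 fold change 0.33, SE 0.13, edgeR adjusted p 0.355). KLF5 was 5.06 ± 0.716 times as abundant as KLF4 per length in siNC and 3.87 ± 0.644 times in siETV4 (SD, n = 4 each), and the single-library ratios overlapped, at 4.47 to 6.10 and 3.03 to 4.58.

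TFAP2A and TFAP2C encode AP-2 factors, which set up the surface ectoderm and act with p63. TFAP2A stood at 61.2, 54.1, 53.5 and 75.9 CPM in siETV4 and at 83.2, 58.8, 61.2 and 63.3 CPM in siNC. TFAP2C was at 34.5, 36.7, 35.4 and 39.9 CPM in siETV4 and at 47.9, 40.5, 39.2 and 40.4 CPM in siNC. Both genes overlapped between the groups, TFAP2C only by siETV4 replicate 4 lying above siNC replicate 3. Their log2 fold changes were -0.12 (SE 0.15) and -0.20 (SE 0.11). That of TFAP2A was -0.25 without siETV4 replicate 4 and 0.0009 without siNC replicate 1, the ends of its range when 1 library was left out. That of TFAP2C ran from -0.24 to -0.13, the latter without siNC replicate 1. TFAP2A overlaps the antisense genes TFAP2A-AS1 and TFAP2A-AS2, which had mean counts of 20.5 and 45.1, and SOX9 overlaps SOX9-AS1 with 2.75. Whether the counts used strand is not stated in the labels, so reads of such pairs cannot be told apart.

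The pair of AP-2 genes was expressed nearly evenly. The ratio of TFAP2A to TFAP2C per length was 1.13 ± 0.141 in siETV4 and 1.07 ± 0.0792 in siNC (SD, n = 4 each). TFAP2B was at 0 counts in every library and TFAP2E at 6 or fewer.

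The Notch genes are taken here from ligand to target. JAG1, the ligand on chromosome 20 from 10637684 to 10673999 (minus strand), stood at 118, 104, 115 and 143 CPM in siETV4 and at 119, 103, 117 and 119 CPM in siNC. The groups overlapped fully apart from siETV4 replicate 4, the highest library, and the log2 fold change was 0.07 (SE 0.11), with -0.03 without siETV4 replicate 4 and 0.13 without siETV4 replicate 2 as the ends of its range when 1 library was left out. JAG2, the related ligand, was more abundant than JAG1 per length, at 24.8 FPKM in siETV4 and 29.6 FPKM in siNC (log2 fold change -0.30, SE 0.11, edgeR adjusted p 0.322). The ratio of JAG1 to JAG2 was 0.826 ± 0.0812 in siETV4 and 0.647 ± 0.0820 in siNC (SD, n = 4 each), and siETV4 replicate 2 (0.709) lay below siNC replicate 4 (0.754).

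NOTCH1, the main receptor of the suprabasal programme, had the lowest log2 fold change of the 10 genes. It lies on chromosome 9 from 136494433 to 136546048 (minus strand). The siETV4 libraries stood at 86.0, 82.8, 65.0 and 110 CPM and the siNC libraries at 158, 92.3, 117 and 112 CPM. In siNC replicate 1 it was highest and in siETV4 replicate 3 lowest, and the groups overlapped because siETV4 replicate 4 lay above siNC replicate 2. Means were 85.9 ± 18.4 and 120 ± 27.5 CPM (SD, n = 4 each), with a log2 fold change of -0.48 (SE 0.18).

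NOTCH1 has the highest GC content of the 10 genes, 62.9% of its longest transcript. With GC content and length trends removed its log2 fold change was -0.29 (SE 0.12). It was -0.62 to -0.32 when 1 library was left out, with the value nearest 0 found without siNC replicate 1. The part of GC content in this difference was not tested.

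NOTCH2, the second receptor, stood at 115, 89.6, 78.7 and 143 CPM in siETV4 and at 152, 112, 126 and 138 CPM in siNC. Again siNC replicate 1 was highest and siETV4 replicate 3 lowest, and siETV4 replicates 1 and 4 lay within the siNC range. The log2 fold change was -0.31 (SE 0.17) with all libraries. Leaving out 1 library gave -0.49 to -0.19, the ends being without siETV4 replicate 4 and without siETV4 replicate 3. Partial copies of NOTCH2 are counted under their own symbols, of which NOTCH2NLA had 177 to 267 counts and NOTCH2 itself 3270 to 6227, so a small share of NOTCH2 reads may have been split.

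The receptors were highest and lowest in the same libraries, and their ratio varied less than their levels. NOTCH1 to NOTCH2 per length was 0.923, 1.14, 1.02 and 0.943 in siETV4 and 1.28, 1.02, 1.15 and 0.998 in siNC. The groups overlapped, with means of 1.01 ± 0.0973 and 1.11 ± 0.131 (SD, n = 4 each). NOTCH3 was at 0.0938 FPKM in siNC and 0.107 FPKM in siETV4, and NOTCH4 had at most 14 counts.

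HES1, the target gene, stood at 36.3, 39.1, 33.6 and 39.8 CPM in siETV4 and at 43.8, 39.8, 44.4 and 37.5 CPM in siNC. Only siNC replicates 1 and 3 lay above every siETV4 library. The log2 fold change was -0.15 (SE 0.11), and it stayed between -0.20 and -0.11 when 1 library was left out.

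RefSeq's promoter windows (GRCh38.p14) were found for 8 of the 10 genes, SOX9 and TFAP2C being without one, and KLF5 and TFAP2A had 2 windows each. In the 250 bases before the start, the letters CGGAAG, a core that ETS factors such as ETV4 bind, were searched on both strands, as were the letters GTGGGAA, a core bound by RBPJ. No run of letters matched both. CGGAAG was found in 1 of the 10 windows, that of NOTCH2, and in 16.5% of all 35116 windows of this length. GTGGGAA was found in 1 of the 10, that of HES1, and in 5.43% of all. Both are shown 5′ to 3′ on the gene's strand, HES1 at chr3:194135898-194136147 (plus) and NOTCH2 at chr1:120069663-120069912 (minus), because they are the windows of these genes with a match, whose letters are in capitals.
HES1: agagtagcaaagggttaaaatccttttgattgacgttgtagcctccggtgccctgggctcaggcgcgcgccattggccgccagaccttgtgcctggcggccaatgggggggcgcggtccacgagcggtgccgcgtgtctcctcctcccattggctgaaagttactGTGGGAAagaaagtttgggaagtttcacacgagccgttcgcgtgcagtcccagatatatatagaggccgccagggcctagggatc
NOTCH2: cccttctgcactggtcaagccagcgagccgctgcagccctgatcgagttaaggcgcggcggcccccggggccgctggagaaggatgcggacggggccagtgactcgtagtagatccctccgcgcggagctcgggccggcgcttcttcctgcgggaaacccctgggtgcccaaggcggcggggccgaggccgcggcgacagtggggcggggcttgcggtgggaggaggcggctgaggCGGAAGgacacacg
The capitals lie 85 to 79 bases before the start of HES1 and 14 to 9 bases before that of NOTCH2. The SOX4 window held neither CGGAAG nor GTGGGAA, and GENCODE v29 starts SOX4 further upstream. The 1 TP63 window, chr3:189631139-189631388, lies within the gene, and windows at other starts of TP63 were not searched. Other forms of the ETS core were not searched for over all windows. The related letters AGGAAG, read on either strand, lie in the windows of SOX4 and NOTCH2 and in a window of TFAP2A. Their share over all windows was not counted, so nothing is read from them. A match is a run of letters, not a binding site, and no binding was measured here.

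**Figure D3:**
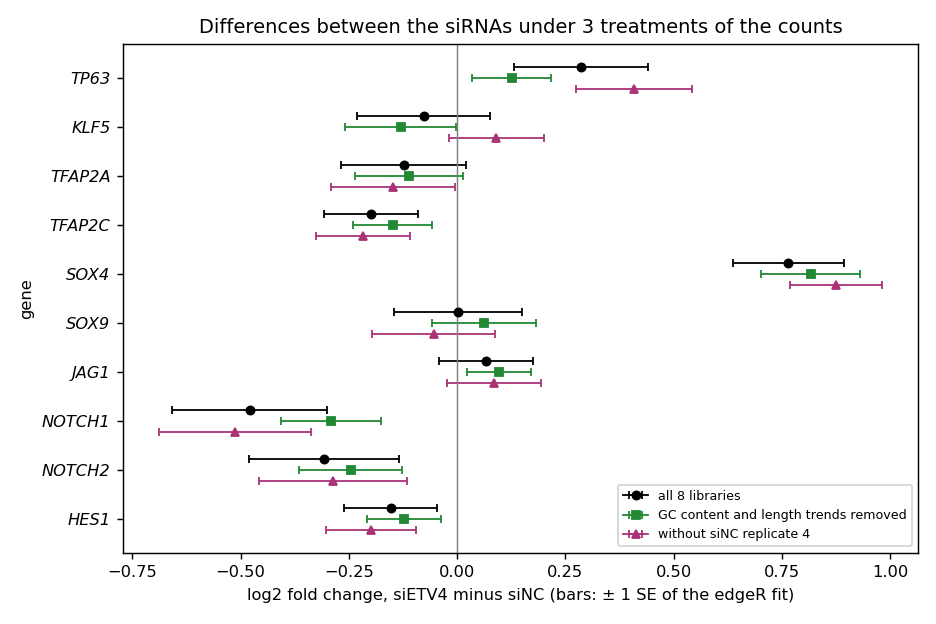
Log2 fold change, siETV4 minus siNC, of the 10 genes with bars of 1 SE, from all 8 libraries (black), with GC content and length trends removed (green) and without siNC replicate 4 (purple). SOX4 lies at 0.77, 0.82 and 0.88, TP63 between 0.13 and 0.41, and KLF5 and SOX9 change sign between settings.

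As a set the 10 genes did not lean one way. Of the log2 fold changes 4 were positive and 6 negative, with a median of -0.10, while over all 13572 genes tested the median was -0.01 and 48.4% were positive. TP63 and SOX4 were positive and TFAP2C, NOTCH1, NOTCH2 and HES1 negative in each of the 20 other settings that were run. SOX9 was positive in 12 of them, KLF5 in 3, TFAP2A in 1 and JAG1 in 19.

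Much of the variation of these genes lay between cultures of the same siRNA. In siETV4 replicate 4, 9 of the 10 genes had their highest siETV4 value, and the median deviation of the 10 from their own means was 0.28 on the log2 scale, against -0.21 in siETV4 replicate 2. Within siNC, replicate 1 was the highest library for 5 genes and replicate 4 for 4. The genes split between these 2 libraries by name: TFAP2A, TFAP2C, SOX9, NOTCH1 and NOTCH2 were highest in siNC replicate 1, and TP63, KLF5, SOX4 and JAG1 in siNC replicate 4. NOTCH2 was the most variable of the 10 in siETV4 (coefficient of variation of CPM 27.0%) and NOTCH1 in siNC (23.0%), and TFAP2C (6.44%) and JAG1 (6.51%) were the least.

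**Figure D4:**
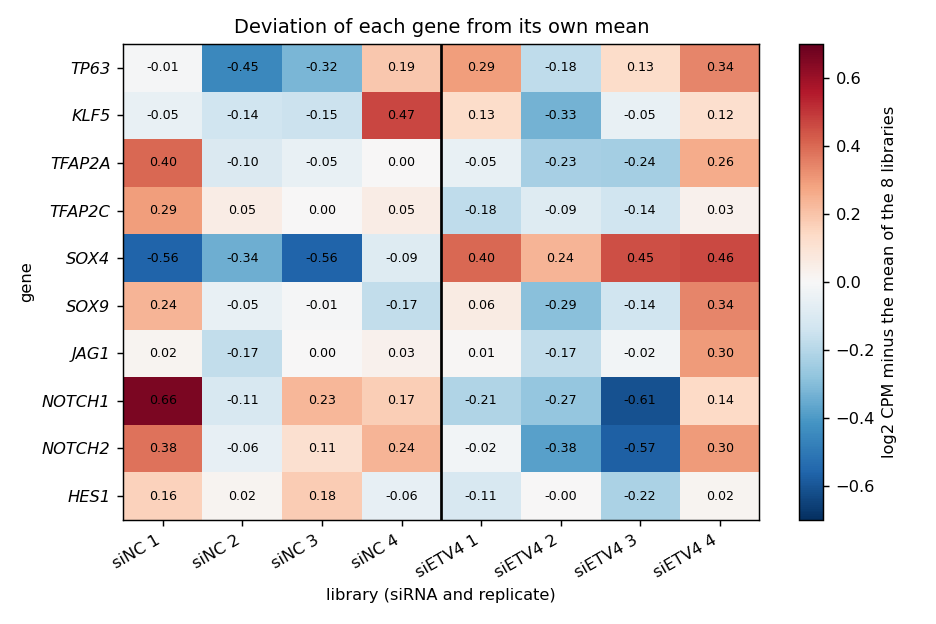
Log2 CPM of each gene minus its mean over the 8 libraries, with siNC libraries left of the line and siETV4 libraries right of it. SOX4 is below its mean in the 4 siNC libraries and above it in the 4 siETV4 libraries, and siETV4 replicate 4 is above the mean for all 10 genes.

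The genes whose pattern over the 8 libraries was nearest to SOX4 were TNFSF15, ADGRF4 and UBD. Nearness was the root mean square difference of log2 CPM centred on the 8 libraries, among the 9151 genes whose log2 CPM averaged 3 or more. It was 0.105, 0.117 and 0.126 for these genes, where the median gene was at 0.461 from SOX4. TNFSF15, a TNF-family cytokine, averaged 11.2 ± 1.06 CPM with siETV4 against 7.03 ± 0.557 CPM with siNC (SD, n = 4 each). ADGRF4, an adhesion G protein-coupled receptor, was at 14.8 and 9.07 CPM, and UBD, a ubiquitin-like modifier, at 132 and 78.4 CPM. Since these genes were picked for a pattern like that of SOX4, their differences between the siRNAs are a description.

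Nearest to TP63 were LAMA3, MEGF9 and PPP4R3A, at 0.0625, 0.0683 and 0.0684, where the median gene was at 0.332. LAMA3, a laminin-332 chain gene that p63 is known to control, averaged 253 ± 45.8 CPM with siETV4 against 205 ± 35.3 CPM with siNC (SD, n = 4 each; log2 fold change 0.30, SE 0.15). MEGF9 and PPP4R3A had log2 fold changes of 0.27 and 0.28. All of these likenesses come from the same 8 libraries, whose GC content trends differ, and the part of those trends in them was not tested.

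The other genes of these pathways were described from lists of the Notch pathway, p63 targets, relatives of the 10 genes and other epidermal factors. Of 33 tested Notch pathway genes, out of 40, edgeR called 0, against 0.236% of all genes. At an unadjusted p under 0.05 by edgeR 3 were higher and 3 lower, where 12.6% of all genes passed. DESeq2, which called 1.12% of all genes, and limma-voom, which called 0.309%, called 0 of the list. The median log2 fold change was -0.05. The most abundant members were APH1A and PSENEN, subunits of the gamma-secretase that cuts Notch. APH1A stood at 80.9 ± 4.85 FPKM in siETV4 and 89.8 ± 8.997 FPKM in siNC (SD, n = 4 each; log2 fold change -0.20, SE 0.10, edgeR adjusted p 0.450), and PSENEN at 32.9 and 34.5 FPKM (log2 fold change -0.11, SE 0.13).

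Without siNC replicate 4, where 16.9% of all genes were called, edgeR called 8 of the Notch pathway list. Among those higher in siETV4 were ADAM17, ITCH, POGLUT1 and RBPJ, and lower were JAG2, LFNG and NUMBL. With GC content and length trends removed as well, 1 was called without siNC replicate 4, HES2, where 6.40% of all genes were called. Among the other target genes, NRARP was at 9.78 and 10.5 FPKM, HES4 at 7.79 and 9.09 FPKM and HEY1 at 0.953 and 0.898 FPKM in siETV4 and siNC, and HES5 and HEYL were at 0 in all libraries.

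Of 25 p63 target genes 23 were tested, and edgeR called 0. At an unadjusted p under 0.05 by edgeR 0 were higher and 3 lower (TRIM29, EVPL and FGFR3, chosen after their values were seen), where 12.6% of all genes passed, and DESeq2 and limma-voom called 0. The median log2 fold change was -0.01. The most abundant were SFN, a cell cycle inhibitor, and IGFBP3, a binding protein of insulin-like growth factors. SFN was at 683 ± 36.1 FPKM in siETV4 and 699 ± 60.4 FPKM in siNC and IGFBP3 at 597 ± 32.6 and 610 ± 29.7 FPKM (SD, n = 4 each), with edgeR adjusted p of 0.741 and 0.720. Without siNC replicate 4, 5 were called, CLCA2, DST and ITGA6 higher and EVPL and TRIM29 lower. With GC content and length trends removed, where 1.77% of all genes were called, 1 was called, CDKN1A, higher in siETV4. With the replicate block added, where 102 genes were called in all, 1 was called, LAMA3 (log2 fold change 0.41). LAMA3 was also among the 3 called with these trends removed and without siNC replicate 4 (log2 fold change 0.48), where 6.40% of all genes were called.

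The relatives of the 10 genes numbered 29, of which 19 were tested and edgeR called 0. At an unadjusted p under 0.05 by edgeR 1 was higher (KLF4) and 4 were lower (SOX13, SOX15 and KLF13 among them), where 12.6% of all genes passed. DESeq2 and limma-voom called 0. The median log2 fold change was -0.09. SOX15, a SOX gene of squamous cells, was the most abundant SOX gene of the list at 102 ± 4.88 FPKM in siETV4 and 116 ± 10.7 FPKM in siNC (SD, n = 4 each; log2 fold change -0.22, SE 0.10, edgeR adjusted p 0.393). SOX8, SOX11, SOX18 and SOX21 were at 0 counts in every library, and SOX2 reached 15 at most. Without siNC replicate 4, KLF13, SOX13 and SOX15 were among those called lower. With GC content and length trends removed as well, where 6.40% of all genes were called, 1 was called, KLF4, higher in siETV4 (log2 fold change 0.56).

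**Figure D5:**
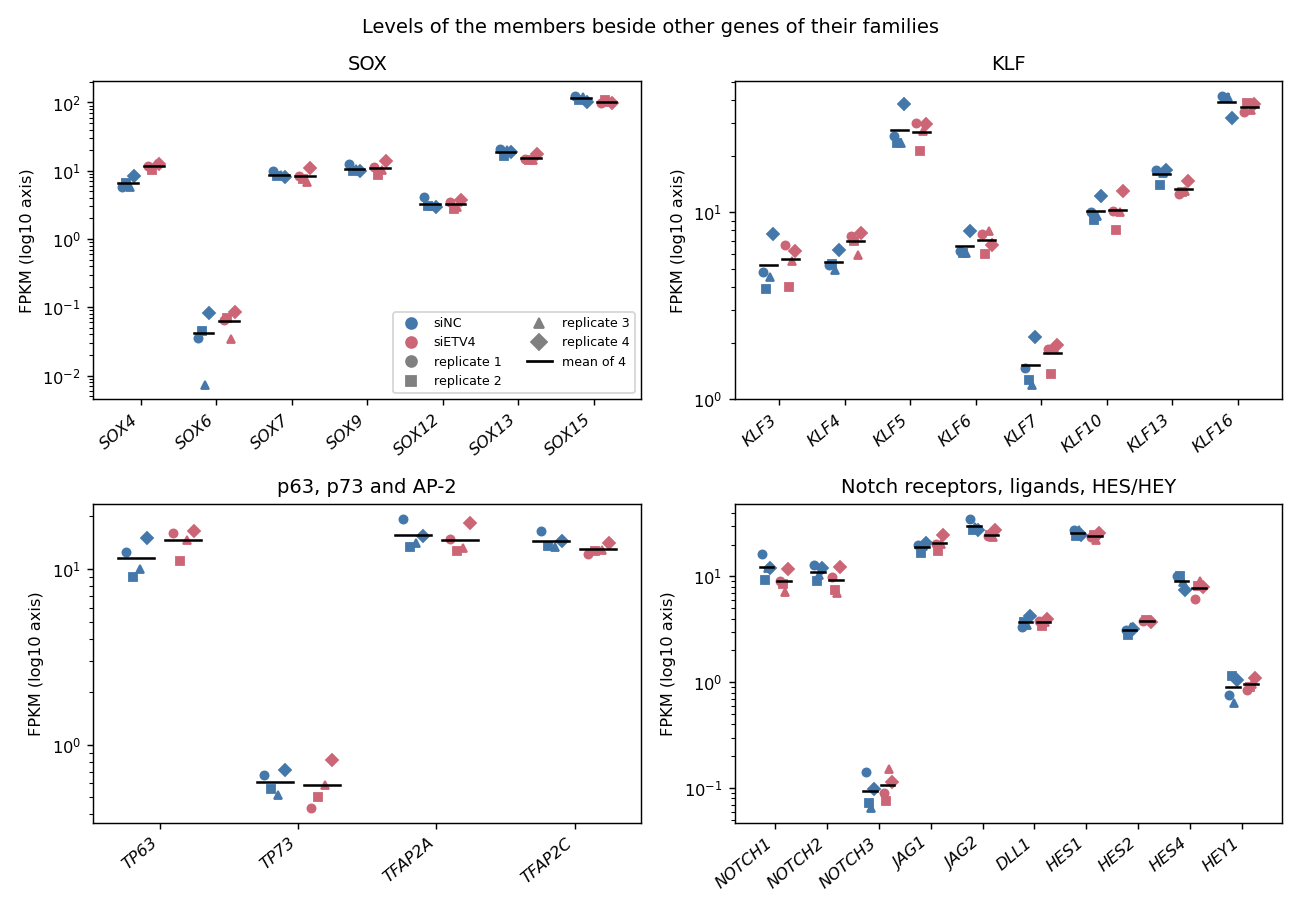
FPKM (log10 axes) of the 10 genes beside relatives with counts in all 8 libraries, with siNC in blue, siETV4 in red, marker shapes for replicates and black lines for means of 4. SOX4 is the SOX gene with separate groups, below SOX15 (102 and 116 FPKM) and SOX13, and NOTCH1 and NOTCH2 lie far above NOTCH3.

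Other epidermal transcription factors numbered 30, of which 25 were tested and edgeR called 0. At an unadjusted p under 0.05 by edgeR 1 was higher (MAF, at under 1 CPM) and 4 were lower (RXRA, CEBPA, VDR and MYC, chosen after their values were seen), where 12.6% of all genes passed. DESeq2 called 1, RXRA, where 1.12% of all genes were called, and limma-voom called 0. RXRA, the partner receptor of vitamin A and vitamin D receptors, stood at 303, 329, 295 and 340 CPM in siETV4 and at 472, 427, 464 and 396 CPM in siNC. Its groups did not overlap, and nor did those of CEBPA, VDR and MAF in this list. Over all genes tested 6.55% did not overlap, 3.93% with siETV4 lower. The log2 fold change of RXRA was -0.47 (SE 0.09, edgeR adjusted p 0.0659). It was called with GC content and length trends removed (log2 fold change -0.31) and without siNC replicate 4 (log2 fold change -0.52). It was not called with the replicate block (edgeR adjusted p 0.319) or without any other single library (7 runs, edgeR adjusted p 0.152 to 0.308). The most abundant of the list, ID3 and ID1, inhibitors of basic helix-loop-helix factors, had log2 fold changes of -0.00 (SE 0.10) and -0.21 (SE 0.10), with edgeR adjusted p of 0.989 and 0.420.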

How the data were processed

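Total RNA of 8 HaCaT cultures was sequenced. The authors deposited raw read counts per gene symbol and FPKM values for the same 34415 symbols. Per the submitters' processing notes the build was hg38 and R 3.2.0 was used. An aligner, a counting tool and an annotation are named neither there nor in the labels. The deposited FPKM values equal the count divided by the library total and a gene length that was the same in every library (20584 of 20585 genes, relative tolerance 1e-06).

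Groups and replicate numbers came from the titles. The count test was edgeR 4.0.16 under R 4.3.3: filterByExpr (minimum count 10) left 13572 genes, libraries were scaled by TMM, and the quasi-likelihood test was adjusted by Benjamini-Hochberg over all of them. A level of 1 CPM stands for 40.1 counts at the mean depth. No pair of libraries agreed within sampling noise (chi-square per degree of freedom at least 10.4).

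The 10 genes and the lists were chosen with earlier results of these data known. The named genes are the 10, ETV4, the members of each list past the threshold (up to 4) or its 2 most abundant, and 3 genes nearest in pattern to SOX4 and to TP63. Other genes named were chosen after their values were seen. A few genes of the lists count in the totals but are not reported here by name. The alternatives were RLE factors, library size alone, other filters, DESeq2 1.42.0, limma-voom (limma 3.58.1), a replicate block, each library left out, limma-trend on log2 of FPKM plus 1 or 0.1 (mean FPKM at least 0.5), and offsets that remove each library's trend with GC content (longest GENCODE v29 transcript, found for 93.9% of tested genes) and with length, each fitted as a spline of 5 degrees of freedom. The test was also run on simulated counts, whose outcome is not given here. They were drawn without the GC content trends of these libraries, so they do not show how the test behaves under such trends.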

Additional observations from a re-analysis of the deposited data

Results flagged for a closer look

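Within a group of 4 libraries, a library was marked where its gap to the nearest other, as a share of the group's range, exceeded Dixon's 95% critical value for 4 samples. Of 52 such groups examined 5 were marked, and chance marks about 1 in 20. KLF5 stood at 132 CPM in siNC replicate 4 against 86.0 to 92.1 CPM in the other siNC libraries. TFAP2C was at 47.9 CPM in siNC replicate 1 against 39.2 to 40.5 CPM, and JAG1 at 103.5 CPM in siNC replicate 2 against 117 to 119 CPM. In siETV4 replicate 2, APH1A was at 257 CPM against 218 to 224 CPM and MEGF9 at 8.004 CPM against 11.7 to 12.1 CPM.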

How the results depend on the processing

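With 4 libraries a group, 1 library changes what is called. Over all genes 32 were called, 4 with the replicate block, 54 without a filter, 164 by DESeq2, 59 on log2 FPKM with either pseudocount, 226 with the GC content and length offsets, 102 with the offsets and the replicate block, 825 with the offsets and without siNC replicate 4, and 9 to 2327 when 1 library was left out (2327 without siNC replicate 4, at most 16 otherwise). Of the 10 genes 1, SOX4, was called, with 0 for library size alone and for the replicate block, and 0 to 1 when 1 library was left out (1 without siNC replicate 4, 0 otherwise). The list counts were 0, and rose as follows. With the offsets 1 p63 target and 1 other epidermal factor were called. The numbers were the same with the replicate block added, but the p63 target was then LAMA3 in place of CDKN1A. With the offsets and without siNC replicate 4 the counts were 1 for the Notch pathway, 3 for p63 targets, 1 for related factors and 1 for other epidermal factors. When 1 library was left out they were 0 to 8, 0 to 5, 0 to 4 and 0 to 4, in this order of lists. Of the other epidermal factors 1 was called by DESeq2 and 1 on log2 FPKM with either pseudocount. The cause of these shifts was not tested.

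The main test did not treat the samples as paired by replicate number. Deviations of same-numbered libraries correlated at -0.0896, 0.296, -0.138 and -0.187, and 2 of 8 libraries were closest to their own number. The libraries' trends with GC content enter these correlations, so they cannot exclude pairing. With the replicate block the SE fell for some of the 10 genes (TP63, from 0.16 to 0.099) and rose for others (TFAP2C, from 0.11 to 0.13). SFN changed sign from -0.08 to 0.0626 with the offsets, 0.0627 with the replicate block added, and 0.0852 with the offsets and without siNC replicate 4. ID3, at -0.00, was 0.0105 with RLE factors, 0.0107 by DESeq2, 0.0406 with library size alone, 0.0404 and 0.0405 on log2 FPKM plus 1 and plus 0.1, 0.119 with the offsets, 0.121 with the replicate block added, 0.155 with the offsets and without siNC replicate 4, and -0.0698 to 0.0417 when 1 library was left out. Of 200 alternative values of the 10 genes' log2 fold changes 199 moved by less than 1 SD between replicates, and 1, SOX4 at 0.95 with the offsets and without siNC replicate 4, moved by more. Leaving out 1 of 4 libraries can shift a group mean by only part of that SD. For those runs the count could hardly come out otherwise, so it is no measure of robustness.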
